A study of Homo sapiens with 2 samples.

Results

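The mRNAs of 10 genes of ferroptosis defence and iron handling were followed in NCI-H460 cells, a line from a human large cell carcinoma of the lung, 24 h after transfection with or without an siRNA against CYP4F11. The genes were GPX4, GPX1, AIFM2, GCH1, CBS, ACSL4, ACSL3, LPCAT3, TFRC and NCOA4, picked by symbol from a deposited table of 58735 genes, and all 10 were found. The control library, labelled siControl and wild type, came from cells that received no CYP4F11 siRNA, and the labels do not name a control sequence. The other library, labelled siCYP4F11, came from the knockdown cells. Both come from the same line and the same labelled batch, and each condition has 1 library, so no value below has a replicate check. The line is written NCI-H469 in the design text, and the name in the sample labels is used here.

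Ferroptosis is a form of cell death in which iron drives the oxidation of polyunsaturated fatty acids in membrane phospholipids. Cells hold it back by reducing lipid peroxides with glutathione and by keeping radical-trapping molecules such as coenzyme Q and tetrahydrobiopterin in their reduced form. The supply of oxidisable phospholipids and of free iron sets how much there is to oxidise. CYP4F11 is a cytochrome P450 enzyme of fatty acid omega-hydroxylation.

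The libraries held 16207785 counts (siControl) and 13002179 counts (siCYP4F11). CYP4F11 itself had 3180 counts in siControl and 972 in siCYP4F11, a log2 ratio of -1.40 (95% counting interval -1.51 to -1.30). Of the epithelial markers, the keratins KRT8, KRT18 and KRT19 were abundant, while EPCAM had 6 and 8 counts and CDH1 had 1 and 0. Summed over these 5 genes, the level was 3483 CPM (counts scaled for library size) in siControl and 2902 CPM in siCYP4F11, with log2 ratios of -0.30 for KRT8, -0.08 for KRT18 and -0.29 for KRT19. The endothelial markers PECAM1, VWF and CDH5 had no reads in either library. Of 4 leukocyte markers, PTPRC and CD3E had no reads, CD68 had 1 and 0, and CD14 had 20 and 33 counts (log2 ratio 1.01, 0.18 to 1.91). Summed over 4 fibroblast markers, the level was 16.9 CPM in siControl and 24.8 CPM in siCYP4F11, mostly from LUM. The part of these marker differences in the results below was not tested.

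All 10 genes were well above the filter of a mean of 1 CPM, and none differed by as much as 1.5-fold between the libraries. A gene was counted as past a fold threshold when its ratio reached that fold and its 95% counting interval excluded equality. At 2-fold, 0 of the 10 passed, where 1.96% of the 13942 measured genes did (0.703% higher and 1.26% lower). Those were 273 genes, of which 24 had a mean of at least 5 CPM, a level that all 10 members exceed. The share among genes above that level was therefore well below 1.96%. At 1.5-fold, 0 of the 10 passed against 5.47% of measured genes (2.04% higher and 3.44% lower). With the interval alone, 9 of the 10 passed against 37.8% of measured genes. Of these, 4 were higher in siCYP4F11 (ACSL4, ACSL3, GCH1 and NCOA4), where 18.6% of measured genes were. On that rule 5 were lower (GPX4, GPX1, AIFM2, TFRC and CBS), where 19.2% of measured genes were. The interval of GPX4 included equality when total counts, DESeq2 size factors or upper-quartile factors replaced the TMM library sizes, so 8 of the 10 passed there. LPCAT3 had an interval that included equality, and those of GPX4, GPX1 and AIFM2 did so after a correction for GC content given below the single genes.

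The intervals cover counting error only, and they are narrow for abundant genes. Among the 2062 genes with a mean of at least 100 CPM, 65.5% had an interval that excluded equality, and 6 of the 6 members at that level did. The log2 ratios of those 2062 genes had an SD of 0.18 and ran from -0.31 at the 5th percentile to 0.27 at the 95th. For the 4864 genes from 25 to 100 CPM the same range was -0.35 to 0.34, and for the 4014 genes from 5 to 25 CPM it was -0.54 to 0.48. ACSL4 and ACSL3 were the members outside the range of their level. The median log2 ratio of the 10 members was 0.003, with 5 above 0 and 5 below, and that of all measured genes was -0.005.

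Levels between genes were compared per length, as TPM (counts divided by the deposited gene length and scaled to a common total). GPX1 had the highest level of the 10, at 524 TPM in siControl and 477 TPM in siCYP4F11. TFRC followed at 219 TPM and 207 TPM, then NCOA4 at 130 TPM and 142 TPM. The level of GPX4 was 124 TPM and 113 TPM. In siControl the counting intervals of NCOA4 (125 to 135 TPM) and GPX4 (117 to 131 TPM) overlapped, so their order there is not settled, and in siCYP4F11 they lay apart.

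Below these came AIFM2 at 80.1 TPM in siControl and 70.6 TPM in siCYP4F11, ACSL3 at 79.3 TPM and 97.4 TPM, and ACSL4 at 53.5 TPM and 69.7 TPM. AIFM2 and ACSL3 could not be ordered in siControl, and AIFM2 and ACSL4 could not be ordered in siCYP4F11. GCH1 at 13.8 TPM and 17.5 TPM, CBS at 10.2 TPM and 7.17 TPM, and LPCAT3 at 6.39 TPM and 6.74 TPM were the lowest. By counting intervals CBS was above LPCAT3 in siControl, and their intervals overlapped in siCYP4F11. Reads of CBS can be divided with CBSL, and those of LPCAT3 can be mixed with EMG1 or left uncounted, as given below. The order of GCH1, CBS and LPCAT3 is therefore not settled by these intervals. Ranked by TPM, ACSL3 and AIFM2 exchanged the ranks 5 and 6 between the libraries and the other 8 genes kept theirs.

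**Figure D1:**
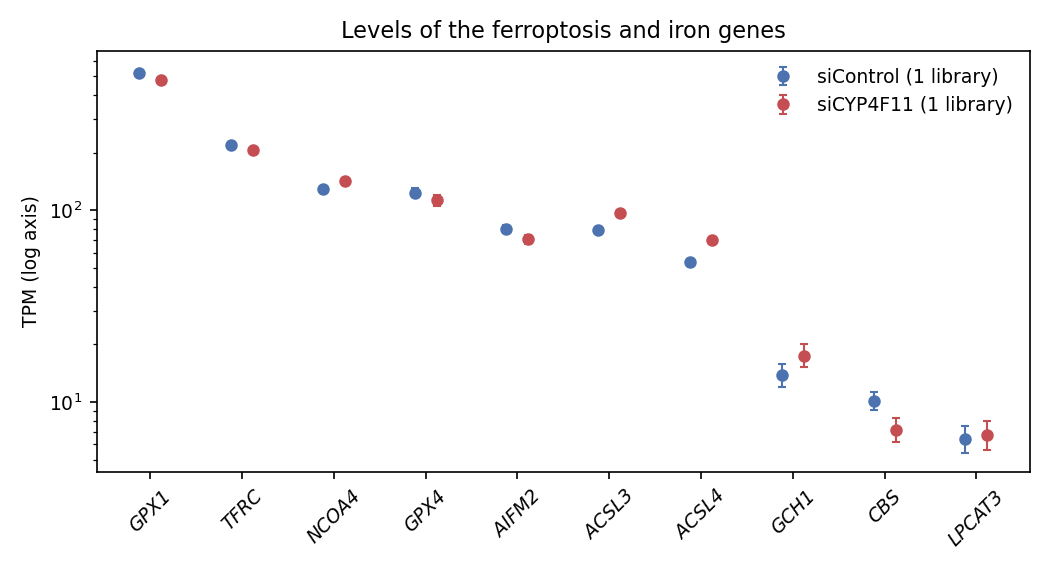
Level of each gene in TPM (log axis) in the siControl library (blue) and the siCYP4F11 library (red), 1 library each, with bars for the 95% counting interval of the count. The genes span from 524 TPM (GPX1) to 6.39 TPM (LPCAT3) in siControl, and the distance between the libraries is small beside that range.

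GPX4 and GPX1 are glutathione peroxidases that carry selenocysteine in the active site. GPX4 reduces peroxides of phospholipids within membranes, and GPX1 reduces hydrogen peroxide and free fatty acid peroxides in the cytosol. Selenocysteine is encoded by a TGA codon, which elsewhere ends translation. A TGA in frame lies at codon 49 of 203 in GPX1-202 and at codon 73 of 197 in GPX4-201, counting codons from the start codon. The coding sequence around it is shown because it is the site both proteins share, with the TGA in capitals, from the GENCODE 29 transcripts on GRCh38 (GPX1 at chr3:49358120-49358146, minus strand; GPX4 at chr19:1105391-1105417, plus strand). The pair was identical at 19 of the 27 bases.
GPX1: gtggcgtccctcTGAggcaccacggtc
GPX4: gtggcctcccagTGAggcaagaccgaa

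GPX4 (ENSG00000167468, chromosome 19, 1103926 to 1106791, plus strand) had 1265 counts in siControl and 937 in siCYP4F11, or 78.4 CPM and 71.8 CPM. Its log2 ratio was -0.13 (-0.25 to -0.004). The siCYP4F11 library was the lower one by a small margin, and the upper bound nearly reached equality. GPX1 (ENSG00000233276, chromosome 3, 49357171 to 49358600, minus strand) had 3792 and 2805 counts, or 235 CPM and 215 CPM, a log2 ratio of -0.13 (-0.20 to -0.06). The peroxidases therefore stood in the same proportion in both libraries. GPX1 was 4.23 times GPX4 in TPM in both, and their log2 ratios differed by 0.002 (-0.14 to 0.14, counting error only). The deposited table gives GPX1 the biotype polymorphic pseudogene, and 14.7% of its 50-base words also occur in other genes, mainly the pseudogene GPX1P1, which had 29 and 28 counts.

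AIFM2 (also called FSP1) reduces coenzyme Q at the plasma membrane and on lipid droplets, a line of defence that does not need glutathione. The gene (ENSG00000042286, chromosome 10, 70098223 to 70132934, minus strand) had 2084 counts in siControl and 1491 in siCYP4F11, or 129 CPM and 114 CPM. The log2 ratio was -0.18 (-0.27 to -0.08), so siCYP4F11 was at 88.5% of the control level. This ratio was the lowest among GPX4, GPX1, AIFM2 and GCH1, but its interval overlapped those of GPX4 and GPX1, so the order of these is not settled. It was still inside the range of genes of like level.

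GCH1, GTP cyclohydrolase 1, makes the first committed step towards tetrahydrobiopterin. The gene (ENSG00000131979, chromosome 14, 54842008 to 54902852, minus strand) was scarce, with 206 counts in siControl and 212 in siCYP4F11, or 12.8 CPM and 16.2 CPM. Its log2 ratio was 0.35 (0.06 to 0.63), a 1.27-fold higher level in siCYP4F11. Its direction was opposite to that of GPX4, GPX1 and AIFM2. At this depth the interval reaches from 1.05-fold to 1.55-fold.

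CBS, cystathionine beta-synthase, joins homocysteine to serine in the transsulfuration route, which supplies cysteine for glutathione. It lies on chromosome 21 from 43053191 to 43076943, minus strand (ENSG00000160200), and had 349 counts in siControl and 200 in siCYP4F11, or 21.6 CPM and 15.3 CPM. The log2 ratio was -0.50 (-0.75 to -0.24), and siCYP4F11 was at 70.9% of the control. No other member had a ratio as far from 0. The near-identical copy CBSL on the same chromosome holds 54.5% of the 50-base words of CBS, so reads can be divided between them. CBSL had 125 and 88 counts, a log2 ratio of -0.20 (-0.61 to 0.21), and both together had 474 and 288 counts, at -0.41 (-0.63 to -0.20).

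Of the 3 members that bring fatty acids to phospholipids, ACSL4 and ACSL3 were above the control level and the direction of LPCAT3 was unsettled. ACSL4 attaches coenzyme A to arachidonic acid and other long polyunsaturated fatty acids, which makes them available for phospholipids. It lies on chromosome X from 109624244 to 109733403, minus strand (ENSG00000068366). It had 1737 counts in siControl and 1839 in siCYP4F11, or 108 CPM and 141 CPM, so it had more reads in the smaller library. Its log2 ratio was 0.39 (0.29 to 0.48), a 1.31-fold higher level, and the highest of the 10. The interval of GCH1 (0.06 to 0.63) contained that of ACSL4, so their order is not settled. With the GC correction GCH1 was the higher, at 0.30 beside 0.25.

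ACSL3 activates fatty acids too, with monounsaturated ones among its substrates, and takes part in forming lipid droplets. It lies on chromosome 2 from 222860934 to 222944639, plus strand (ENSG00000123983), and had 2906 and 2899 counts, or 180 CPM and 222 CPM. The log2 ratio was 0.30 (0.23 to 0.38), a 1.23-fold higher level in siCYP4F11. ACSL4 and ACSL3 were thus higher side by side, and their log2 ratios differed by 0.09 (-0.04 to 0.21, counting error only). ACSL4 stood at 0.675 times the TPM of ACSL3 in siControl and 0.716 times in siCYP4F11. Against GPX4, the TPM of ACSL4 was 0.432 times as high in siControl and 0.618 times in siCYP4F11, a difference of 0.52 between their log2 ratios (0.36 to 0.67). These genes lie at opposite ends of GC content, and with the GC correction described below the difference was 0.26 (0.10 to 0.41).

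LPCAT3 places polyunsaturated acyl chains into lysophospholipids, the step after ACSL4. The gene (ENSG00000111684, chromosome 12, 6976186 to 7018510, minus strand) had 153 counts in siControl and 131 in siCYP4F11, or 9.48 CPM and 10.0 CPM. The log2 ratio was 0.08 (-0.27 to 0.43), which leaves its direction unsettled at this depth. Of its exonic bases, 65.6% overlap exons of EMG1 on the other strand. EMG1 had 993 and 752 counts, a log2 ratio of -0.09 (-0.23 to 0.04). The strand setting of the counting is not given in the sources used here, so reads of both genes may be mixed or left uncounted.

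TFRC, the transferrin receptor, brings iron into the cell, and its mRNA carries iron-responsive elements, hairpins bound by iron regulatory proteins when iron is scarce. Binding in the 3′ UTR protects TFRC mRNA from decay, and binding in the 5′ UTR of ferritin mRNAs blocks their translation. The pattern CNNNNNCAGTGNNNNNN was searched on the transcript strand, with the last 5 bases required to pair with the 5 bases after the first C (G-T pairs allowed). It matched 4 times in the 3′ UTR of TFRC-201, which has 2661 bases. Of 18863 protein-coding 3′ UTRs, which differ in length, 0.551% held a match, and no other held as many as TFRC. Of 18273 5′ UTRs, 0.115% held a match. A match also lay in the 5′ UTR of the iron exporter SLC40A1 (not shown), and the SLC11A2 transcript searched had none. The matches in TFRC, FTH1 and FTL are shown because they are the feature that TFRC shares with the ferritin genes, with the loop in capitals, from GENCODE 29 transcripts. They lie on GRCh38 at chr3:196050979-196051007, chr3:196050575-196050603, chr3:196050510-196050538 and chr3:196050463-196050491 (minus strand, in the order below), at chr11:61967574-61967602 (FTH1, minus strand) and at chr19:48965335-48965363 (FTL, plus strand).
TFRC site 1: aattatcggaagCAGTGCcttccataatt
TFRC site 2: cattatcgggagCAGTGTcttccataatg
TFRC site 3: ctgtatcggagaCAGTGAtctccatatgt
TFRC site 4: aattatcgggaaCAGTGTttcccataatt
FTH1 5′ UTR: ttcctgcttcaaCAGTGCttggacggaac
FTL 5′ UTR: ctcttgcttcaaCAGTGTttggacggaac

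TFRC (ENSG00000072274, chromosome 3, 196027183 to 196082189, minus strand) was the most counted member, with 8741 counts in siControl and 6700 in siCYP4F11, or 541 CPM and 513 CPM. Its log2 ratio was -0.08 (-0.12 to -0.03). The siCYP4F11 level was 94.8% of the control. NCOA4 carries ferritin to lysosomes, where its iron is released. It lies on chromosome 10 from 46005088 to 46030714, minus strand (ENSG00000266412), and had 2677 and 2387 counts, or 166 CPM and 183 CPM. Its log2 ratio was 0.14 (0.06 to 0.22), a 1.10-fold higher level in siCYP4F11. The TPM of TFRC was 1.69 times that of NCOA4 in siControl and 1.45 times in siCYP4F11.

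**Figure D2:**
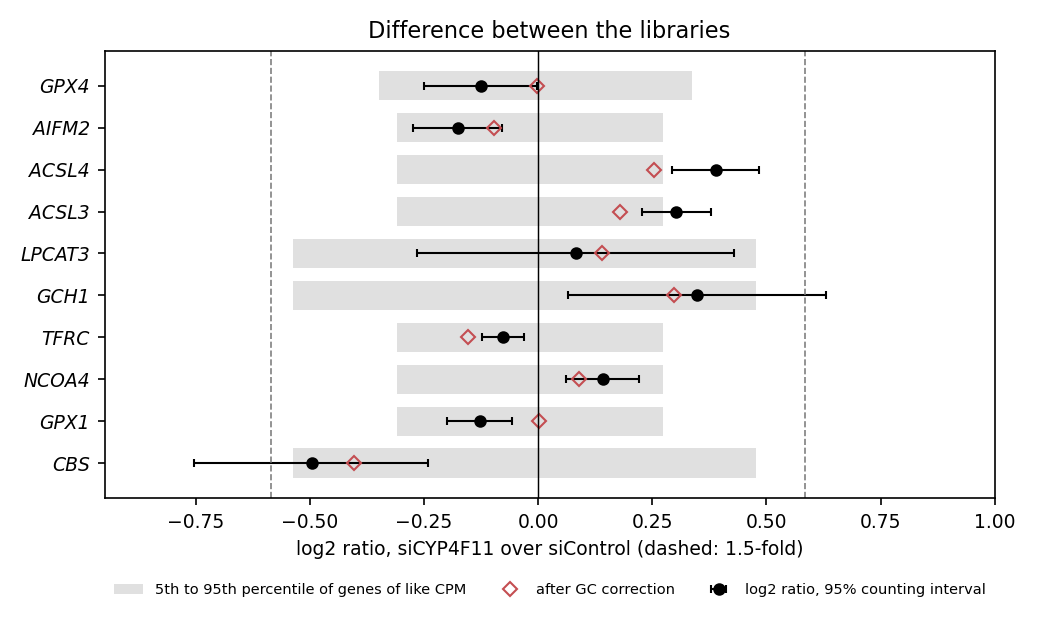
Log2 ratio of siCYP4F11 over siControl for each gene (black points, bars for the 95% counting interval), with the value after correction for GC content (red diamonds) and the 5th to 95th percentile of measured genes of like CPM (grey). ACSL4 at 0.39 and ACSL3 at 0.30 lie beyond the grey range, CBS at -0.50 has the lowest ratio, and no point reaches the dashed 1.5-fold lines.

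The direction of most members went with the base composition of their transcripts. The source of this relation was not tested. Across all measured genes log2 ratios decreased with the GC content of the longest transcript (Spearman's rho -0.32 and Pearson's r -0.25 across 13936 genes of the same 2 libraries, as a description). With measured genes divided into deciles of GC content, the median log2 ratio was 0.14 for the lowest decile and -0.14 for the highest. Across the 10 members rho was -0.78 and r was -0.75. ACSL4 (37.4% GC) and ACSL3 (38.1%) were in the lowest decile and were higher in siCYP4F11. GPX4 (62.5%) and GPX1 (64.2%) were in the highest decile and were lower, at -0.13 beside a median of -0.14 for that decile.

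A lowess correction for GC content was fitted to these same ratios, so it removes any trend with GC content, whatever its source. After it, GPX4 stood at -0.002 (-0.13 to 0.12) and GPX1 at 0.003 (-0.07 to 0.07), and both intervals then spanned 0. AIFM2 was at -0.10 (-0.19 to 0.0003), with an interval that just reached 0. ACSL4 was at 0.25 (0.16 to 0.35) and ACSL3 at 0.18 (0.10 to 0.25). The corrected range of genes with at least 100 CPM was -0.29 to 0.24, so ACSL4 remained past its edge and ACSL3 lay inside. GCH1 was at 0.30 (0.01 to 0.58), NCOA4 at 0.09 (0.009 to 0.17) and CBS at -0.40 (-0.66 to -0.15). TFRC, which was below the control although its GC content of 41.5% is low, moved further down to -0.15 (-0.20 to -0.11).

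**Figure D3:**
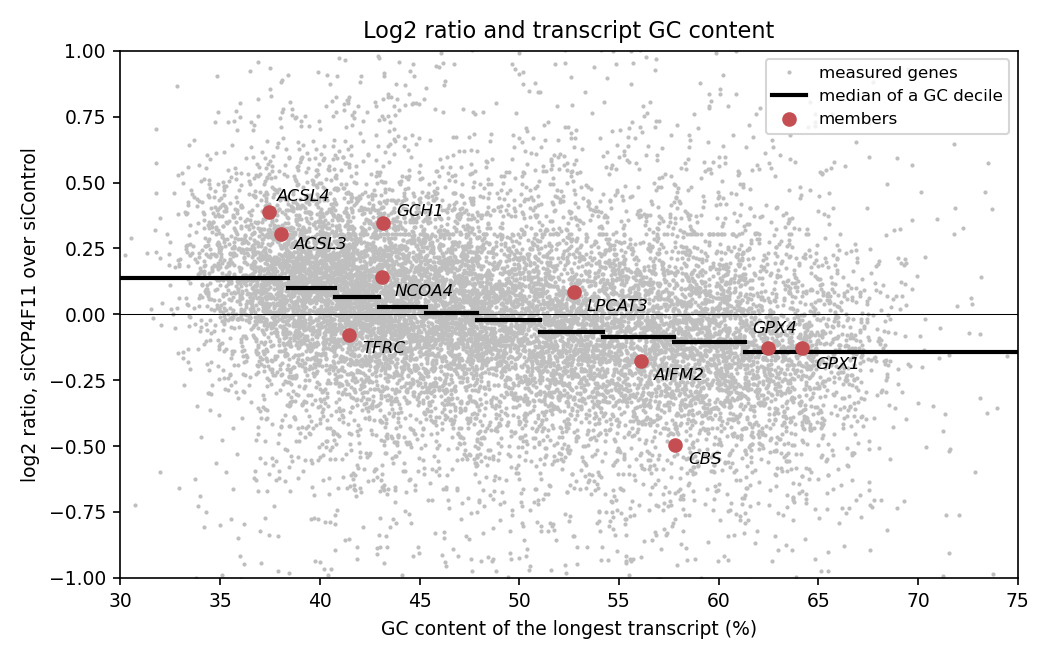
Log2 ratio of siCYP4F11 over siControl against GC content of the longest transcript (%), for measured genes (grey), the median of each decile of GC content (black) and the 10 members (red). The axes leave out 290 of the 13936 genes. ACSL4 and ACSL3 sit at the low-GC end above 0, GPX4 and GPX1 at the high-GC end on the median of that decile, and TFRC and CBS lie below the median of their decile.

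The surrounding pathways were described with 11 lists of 117 further genes, of which 103 were measured. At 2-fold, 0 were higher and 1 was lower, beside 0.703% and 1.26% of all measured genes. The 1 lower gene was FADS2, at 135 CPM in siControl and 53.1 CPM in siCYP4F11. Most measured genes past 2-fold were scarcer, since 24 of the 273 had a mean of at least 5 CPM. At 1.5-fold 3 were higher and 2 lower, beside 2.04% and 3.44%. Of the 103 genes 58 were above 0 and 45 below, with a median of 0.04, beside -0.005 for all measured genes. The next paragraphs name up to 3 genes of each list with the highest TPM and every gene past 1.5-fold.

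Glutathione synthesis and recycling had 10 of 10 genes measured, with 7 above 0, a median of 0.05 and 0 past 1.5-fold. Thioredoxin reductase TXNRD1 was at 0.11 (0.09 to 0.13) and SLC3A2, the chain that anchors the cystine transporter, at 0.02 (-0.02 to 0.06). The list was mixed. Its highest ratio was that of GCLC at 0.44 (0.33 to 0.55), and its lowest that of GSS at -0.30 (-0.41 to -0.19). Other glutathione peroxidases and the machinery of selenoprotein synthesis had 10 of 12 measured, 6 above 0, a median of 0.10 and 0 past 1.5-fold. SEPHS2, which makes the selenium donor, was at 0.31 (0.21 to 0.42), the secreted peroxidase GPX3 at 0.29 (0.17 to 0.41) and GPX8 of the endoplasmic reticulum at 0.18 (0.07 to 0.30). GPX3 and GPX8 were above the control level where GPX4 and GPX1 were below it before the GC correction.

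Coenzyme Q synthesis and quinone reduction, the substrate side of AIFM2, had 14 of 14 genes measured, 10 above 0, a median of 0.11 and 0 past 1.5-fold. The quinone reductase NQO1 had 28041 and 24830 counts, a log2 ratio of 0.13 (0.11 to 0.16). COQ9 was at -0.03 (-0.13 to 0.07) and the methyltransferase COQ5 at 0.22 (0.06 to 0.38). Tetrahydrobiopterin synthesis and recycling, the route that GCH1 opens, had 5 of 6 measured and 4 above 0. Its median was 0.07 and each of the 5 intervals included equality. PCBD1 was at 0.10 (-0.008 to 0.21) and SPR, sepiapterin reductase, at -0.11 (-0.26 to 0.04).

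The list named polyunsaturated phospholipid synthesis and remodelling held both genes that were lower past 1.5-fold. It also holds genes of monounsaturated fatty acids such as SCD, so its median does not describe polyunsaturated lipids alone. Of 14 genes 12 were measured, with 5 above 0 and a median of -0.15. FADS2, the first desaturase in making long polyunsaturated fatty acids, had 2177 counts in siControl and 693 in siCYP4F11, a log2 ratio of -1.34 (-1.47 to -1.22). MBOAT1, an acyltransferase of lysophospholipids, had 65 and 32 counts, at -0.70 (-1.37 to -0.08). The desaturase SCD, which makes monounsaturated fatty acids, was at -0.55 (-0.58 to -0.51). FADS1, which acts after FADS2 in the same route, was on the other side at 0.22 (0.16 to 0.27), as was the elongase ELOVL5 at 0.31 (0.22 to 0.41). The acyltransferases LPCAT1 at -0.33 (-0.49 to -0.17) and AGPAT3 at -0.20 (-0.33 to -0.07) were lower. ACSL1 had the highest ratio of the list at 0.33 (0.20 to 0.47), and MBOAT2 was at 0.12 (-0.11 to 0.35).

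Enzymes that can oxidise lipids, with their partner proteins, had 4 of 9 genes measured, 1 above 0 and a median of -0.04, with 0 past 1.5-fold. PEBP1, a partner of lipoxygenases, was at -0.05 (-0.13 to 0.03), POR, the electron donor of microsomal P450 enzymes, at -0.15 (-0.28 to -0.03), and CYB5R1 at 0.18 (0.002 to 0.35). Of the 6 lipoxygenase genes listed, ALOX15 was the one measured, with 209 and 165 counts, and was named after its value was seen. ALOX5 had 0 counts in both libraries.

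Iron uptake, storage and export had 12 of 14 genes measured, 3 above 0, a median of -0.05 and 0 past 1.5-fold. FTL, the ferritin light chain, had 89740 and 81562 counts, a log2 ratio of 0.17 (0.15 to 0.18). FTH1, the heavy chain, had 16389 and 11532 counts, at -0.20 (-0.24 to -0.17), so the ferritin chains lay on opposite sides of 0. PCBP1, an iron chaperone for ferritin, was at -0.20 (-0.28 to -0.12). Iron sensing had 5 of 6 measured, 2 above 0, a median of -0.15 and 0 past 1.5-fold. IREB2, an iron regulatory protein that binds the hairpins shown above, was at -0.15 (-0.25 to -0.06), and ACO1 of the same list at -0.15 (-0.33 to 0.02). FBXL5, which marks IREB2 for destruction, was at 0.008 (-0.14 to 0.15), and HERC2 at -0.32 (-0.40 to -0.24).

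Mitochondrial iron and iron-sulphur genes had the highest list median, 0.22, with 10 of 10 measured, 7 above 0 and 2 higher past 1.5-fold. FECH, ferrochelatase, which inserts iron into haem, had 733 counts in siControl and 943 in siCYP4F11, a log2 ratio of 0.67 (0.53 to 0.81). CISD2 had 599 and 730 counts, at 0.59 (0.43 to 0.75), and its relative CISD1, an iron-sulphur protein of the outer mitochondrial membrane, had 594 and 674, at 0.49 (0.33 to 0.65). All 3 had more reads in the smaller library. With the GC correction FECH was at 0.63 and stayed past 1.5-fold. CISD2 fell to 0.45, short of 1.5-fold, and CISD1 to 0.32, while the list median was 0.26. The cluster scaffold ISCU was at 0.26 (0.15 to 0.37) and the iron importer SLC25A37 at -0.09 (-0.18 to -0.01). The list was mixed, with the cluster assembly genes HSCB at -0.54 (-0.90 to -0.19) and LYRM4 at -0.44 (-0.68 to -0.20) on the lower side.

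The methionine cycle and transsulfuration list around CBS had 11 of 12 genes measured, 7 above 0, a median of 0.07 and 1 higher past 1.5-fold. That gene was SQOR, a sulphide oxidase, with 104 and 134 counts, at 0.67 (0.29 to 1.06). CTH, the enzyme after CBS, was at 0.07 (-0.05 to 0.19), MAT2A, which makes S-adenosylmethionine, at 0.02 (-0.04 to 0.08), and AHCY, which yields homocysteine, at -0.21 (-0.27 to -0.15). Regulators of ferroptosis genes had 10 of 10 measured, 6 above 0, a median of 0.06 and 0 past 1.5-fold. The chaperone HSPA5 was at 0.05 (0.02 to 0.08), the transcription factor ATF4 at -0.06 (-0.10 to -0.02) and SAT1, a polyamine acetyltransferase, at 0.11 (0.05 to 0.17).

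Of the pathway genes named, NQO1, PEBP1, FTL, FTH1, PCBP1, HERC2, CISD2, HSCB, MAT2A, SQOR and ATF4 have more than 10% of their 50-base words in common with other genes, which makes their counts uncertain.

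**Figure D4:**
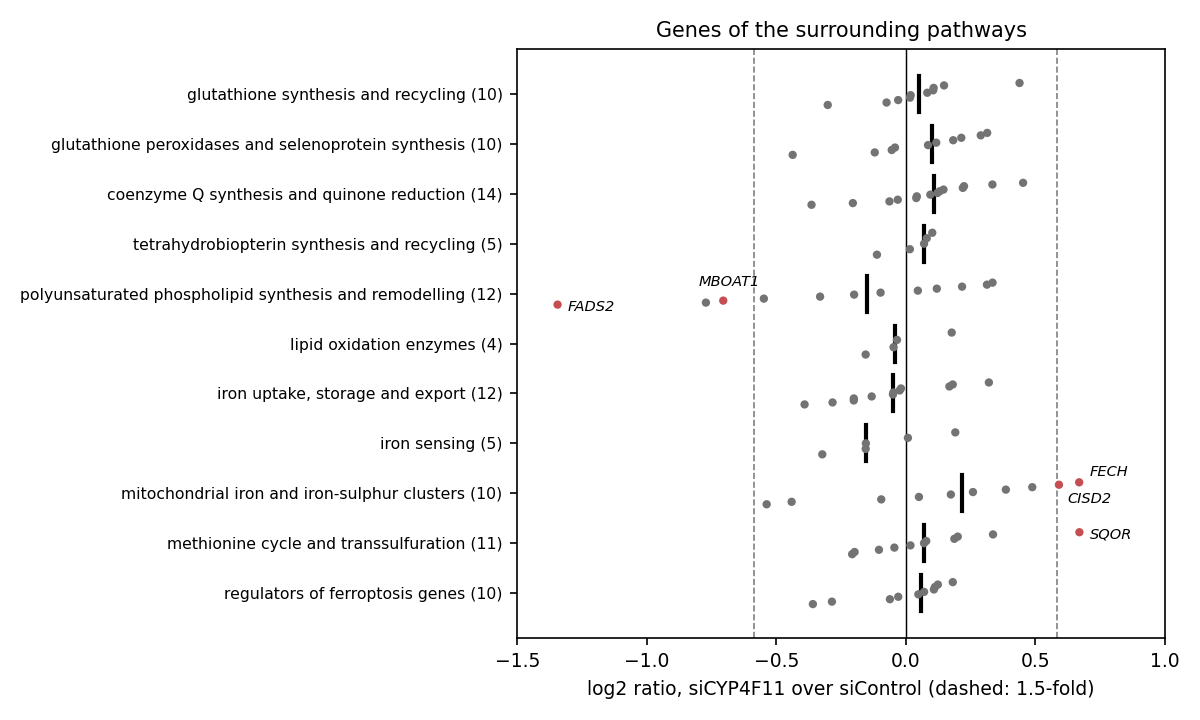
Log2 ratio of siCYP4F11 over siControl for the 103 measured genes of the 11 lists, 1 point per gene, with the number measured in brackets and a black bar at the list median. Red points passed 1.5-fold (dashed lines) with an interval that excludes equality: FADS2 and MBOAT1 on the lower side, and FECH, CISD2 and SQOR on the higher side. One grey point beyond the line, LPCAT2 at -0.77, has an interval that includes equality.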

How the data were processed

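The authors deposited 1 table of whole-number read counts per gene for both libraries, not normalised, with the length of each gene model (other columns of samples: 0). Per the submitters' processing notes, the build was GRCh38 and the tools were featureCounts 2.0.6, HISAT2 2.2.1, edgeR 4.0.16 and fastp. Their parameters and whether counting used strand are not given in the sources used here. The labels' protocols describe poly-A selection and dUTP strand-specific libraries. All 58735 gene IDs and coordinates matched GENCODE 29.

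From the deposited counts, effective library sizes were computed by TMM (edgeR 4.0.16, R 4.3.3; factors 0.996 and 1.004). Each log2 ratio is siCYP4F11 over siControl with 0.5 added to each count, and its 95% interval was derived from the exact Clopper-Pearson limits of the share that siCYP4F11 has in the sum of the counts. Intervals cover counting error only, because each group has 1 library and the spread between repeat libraries could not be measured. The reads also carry no molecular identifiers and may repeat a molecule, so the intervals may be too narrow even for counting error. Intervals of TPM are exact Poisson intervals. Genes averaging at least 1 CPM over both libraries were kept and are called measured genes. A floor of 3 counts was 0.186 CPM in siControl and 0.230 CPM in siCYP4F11. No p-value was computed, since edgeR's quasi-likelihood test needs replicates. GC correction used lowess with a span of 0.3 on the GC content of the longest transcript. Sharing of 50-base words was searched over all GENCODE 29 transcripts. The code for ratios was tested on simulated data.

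The members, the 11 lists and the rules were chosen with earlier results of these data known. All 10 members, CYP4F11, the 3 genes of each list with the highest mean TPM and all list genes past 1.5-fold were named, and genes named beyond that were chosen after their values were seen. Some list genes that this rule names are not reported here. Alternatives were total counts, DESeq2 1.42.0 size factors, upper-quartile factors, 2 added to each count, the GC correction, other filters and thresholds, protein-coding genes alone, list means, and CBS with CBSL added. Python 3.11.15, numpy 2.4.6, scipy 1.17.1, pandas 2.3.3, statsmodels 0.14.6 and matplotlib 3.10.9 were used.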

Additional observations from a re-analysis of the deposited data

How the results depend on the processing

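No paired analysis was possible because each group has 1 library. Under other scalings and with 2 added to each count, the log2 ratio of each of the 10 members moved by at most 0.012. With the GC correction GPX1 changed sign to 0.0026, GPX4 moved to -0.0020, ACSL4 to 0.25, ACSL3 to 0.18 and TFRC to -0.15. The other 5 members stayed inside their counting intervals under it. The number of members past 2-fold was 0 under each scaling and at 1.5-fold, and 9 where the interval alone had to exclude equality. That number was 8 with total counts, DESeq2 size factors or upper-quartile factors, where GPX4 was lost, and 6 with the GC correction. Repeating the count of intervals alone under these settings was a check chosen after seeing the data. Of all measured genes, 273 passed 2-fold, 763 passed 1.5-fold and 5277 had an interval that excluded equality. With no filter on low counts 821 passed 2-fold, with a minimum mean of 5 CPM 24 did, and among protein-coding genes alone 153. These follow from a laxer or stricter rule or from testing more or fewer genes. The 11 list medians stayed inside a 95% binomial interval for the median, taken from the ordered ratios of each list, under the alternatives run. For lists with 4 or 5 measured genes that interval was the full span of their ratios, which covers less than 95%. These intervals were wide, such as -0.44 to 0.59 for mitochondrial iron and iron-sulphur clusters, and genes of a list are not replicates. Staying inside them therefore says little about robustness. Of the medians, 2 changed sign: lipid oxidation enzymes at 0.03 with the GC correction, and regulators of ferroptosis genes at -0.009 as a mean. Depth limits LPCAT3, GCH1 and CBS most, the members with the fewest counts.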
